A study of Gallus gallus with 24 samples.

Results

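PPARG, EBF2 and EBF3 are transcription factors of adipocyte differentiation, and their transcripts were followed in abdominal fat of juvenile chickens. The members were the spots that carry these 3 gene symbols: 4 of the 19200 spots on the array, 1 for PPARG, 1 for EBF2 and 2 for EBF3, or 3 of the 6428 named genes measured. The arrays compared cockerels of a fat line (FL) with cockerels of a lean line (LL), meat-type birds bred over several generations for more or less abdominal fat, raised under standard broiler conditions with no other treatment named. Birds were sampled every 2 wk from 1 to 11 wk of age, and at each of the 6 ages 4 arrays carried 1 FL bird and 1 LL bird in different dyes, 24 arrays in all. FL was in the Alexa 647 channel on 2 arrays per age (replicates 2 and 4) and LL on the other 2 (replicates 1 and 3). The birds of each array were different animals, so the spread between arrays joins the spread between birds and that of the measurement.

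PPARG is a nuclear receptor that binds DNA together with a retinoid X receptor and recruits coactivators when a fatty acid ligand is bound. It is required for preadipocytes to become adipocytes, and in mature fat it keeps genes of lipid uptake, storage and release active. EBF2 and EBF3 belong to the early B-cell factor family of helix-loop-helix proteins. In mice, EBF2 marks preadipocytes of brown fat and helps PPARG bind at brown fat genes. EBF factors together promote adipogenesis, besides roles in neurons, bone marrow stroma and muscle development.

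Each value was a deposited log2 ratio of one line over the other. The titles name FL first, so FL was likely the numerator, but no source used here states it. If LL was the numerator, all signs reverse. Over all features the mean r between arrays was 0.213 for pairs with the same line in the 647 channel. It was -0.170 for pairs with different lines there, so a large part of the values followed the dye orientation. That part was fitted as a dye term and subtracted ("dye-corrected ratio"). If each ratio is instead Alexa 647 over the other dye, the subtracted part holds the line difference itself. The values alone cannot tell a dye bias from this. The other reading, in which the ratios are turned by the dyes, gave different results for PPARG and is given after the first. The choice between them was not settled. Spot names were used after exchanging row and column within each print block. With these names the clones of 1724 genes that have exactly 2 clones correlated at a median r of 0.0427 across arrays (unweighted dye means subtracted), against 0.0052 with the names as listed, and the 2 EBF3 clones at 0.301 against -0.366. This r was above 0 for 56.4% of those genes against 50.6%, so clones of one gene agreed little under either naming. PPARG and EBF2 have 1 clone each, so their values could not be checked in this way. A ratio carries no level, so the presence of adipocyte RNA in the tissue could not be checked from markers, and levels of the 3 genes could not be compared with each other. In bulk tissue, fewer cells of a type and less RNA per cell cannot be told apart.

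PPARG had the widest scatter of the 3 genes, in both directions. At 1 wk its dye-corrected log2 ratio was -0.38, 0.65, 0.013 and 1.29 on replicates 1 to 4. At 3 wk the 4 arrays gave 0.055, 0.26, -0.26 and 0.20. The ratio at 5 wk was 0.27, 0.33, -0.52 and 0.17. Most arrays of these 3 ages lay above 0, with 1 array below 0 at each age, and 1 wk replicate 4 held the highest PPARG ratio of all 24 arrays. At 7 wk the ratios were -0.18, 0.44, -0.25 and 0.13. Those at 9 wk were -0.048, -0.96, 0.36 and -0.63. The last age, 11 wk, gave 0.73, -0.10, 0.16 and -0.82. From 7 wk on both signs were present at each age. The arrays parted by dye at 5 of the 6 ages, though not in one direction: replicates 2 and 4, with FL in the 647 channel, lay above replicates 1 and 3 at 1, 3 and 7 wk, and below them at 9 and 11 wk.

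**Figure D1:**
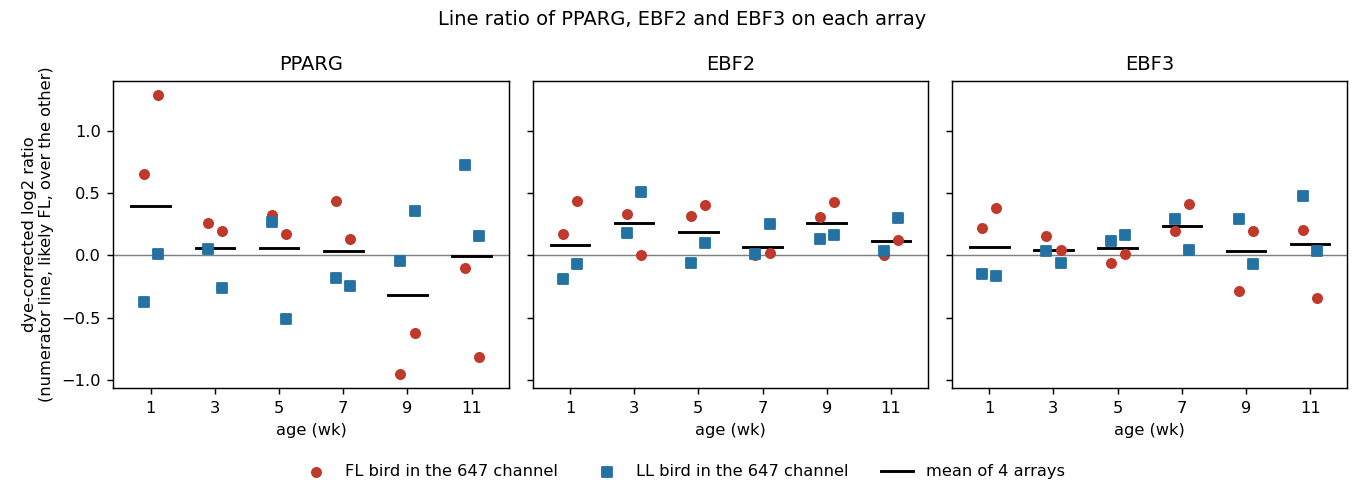
Dye-corrected log2 ratio (y axis, numerator line, likely FL, over the other) against age in wk (x axis) for PPARG, EBF2 and EBF3, 1 point per array; circles are arrays with FL in the 647 channel, squares arrays with LL there, and the bar is the mean of the 4 arrays. PPARG runs from -0.96 to 1.29, while 21 of 24 EBF2 points lie above 0.

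Over the 6 ages the fitted PPARG line effect was 0.07 on the log2 scale (SE 0.0980, 95% interval -0.14 to 0.27, n = 24 arrays), with 14 of 24 arrays above 0, a count that 28.5% of features reached. The residual SD of PPARG was 0.531, larger than that of 97.3% of features and above the median of 0.207. With this scatter the interval covers a ratio of either sign, and limma gave an adjusted p of 0.874. In this comparison 0.0133% of the 15027 features were called at an adjusted p under 0.05, and none of the 3 genes was among them. By age the fitted effect was 0.36 (SE 0.262) at 1 wk, 0.07 (SE 0.211) at 3 wk and 0.02 (SE 0.271) at 5 wk. It was 0.19 (SE 0.261) at 7 wk, -0.21 (SE 0.250) at 9 wk and -0.03 (SE 0.167) at 11 wk. None of these ages was called for PPARG. The share of features called was 0% at 1, 5 and 9 wk, 1.15% at 3 wk, 0.00665% at 7 wk and 0.0466% at 11 wk, and 0% for the slope. The slope was -0.04 per wk (SE 0.0268, unadjusted p 0.182), and the test for unequal effects between ages gave an unadjusted p of 0.683. The 1 wk effect rested on few birds: it was -0.05 without replicate 4 and 0.77 without replicate 1. Part of the scatter was a dye split that changed with age. With a dye term for each age, chosen after seeing the data, the SE of the PPARG mean was 0.065. In that fit limma gave 0.40 at 1 wk (SE 0.159, unadjusted p 0.0242) and a slope of -0.05 (SE 0.0179, unadjusted p 0.0214, adjusted 0.898). Neither was called.

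EBF2 lay above 0 on most arrays, with small ratios. Its dye-corrected log2 ratio at 1 wk was -0.19, 0.17, -0.068 and 0.44 on replicates 1 to 4. At 3 wk it was 0.18, 0.34, 0.51 and 0.0053. At 5 wk the arrays gave -0.059, 0.32, 0.098 and 0.40. The 3 arrays below 0 were 2 at 1 wk and 1 at 5 wk, each with LL in the 647 channel. At 7 wk EBF2 stood at 0.010, 0.0031, 0.25 and 0.019. At 9 wk it stood at 0.13, 0.31, 0.17 and 0.43. At 11 wk it stood at 0.034, 0.0022, 0.31 and 0.12. All 4 arrays were above 0 at 3, 7, 9 and 11 wk, but 3 of the 4 at 7 wk lay within 0.02 of 0. The share of features above 0 on all 4 arrays was 8.36% at 3 wk, 2.45% at 7 wk, 9.55% at 9 wk and 7.29% at 11 wk.

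The EBF2 line effect over the 6 ages was 0.15 (SE 0.0417, 95% interval 0.06 to 0.23), and 21 of 24 arrays were above 0. Only 0.0535% of features with a value on every array, 8 of 14952, lay above 0 on as many arrays. The count includes arrays close to 0, such as 3 wk replicate 4 (0.005) and 11 wk replicate 2 (0.002). It depends on the array-weighted dye term of 0.05. Unweighted, the deposited EBF2 mean was 0.238 with FL in the 647 channel and 0.0888 with LL there. A dye term as large as those means differ would put both named arrays below 0. The count with unweighted dye means was not computed. On 7 wk replicate 1 the EBF2 ratio was -0.016 before the dye term was subtracted. The unadjusted p of 0.00208 placed EBF2 at rank 208 of 15027 features, but after adjustment over all of them limma's p was 0.151, so EBF2 was not called. An unadjusted p under 0.05 with a ratio above 0 was reached by 6.16% of features in this comparison. At single ages the fitted effect was 0.07 (SE 0.112), 0.23 (SE 0.0899) and 0.21 (SE 0.115) at 1, 3 and 5 wk, and 0.05 (SE 0.111), 0.22 (SE 0.106) and 0.11 (SE 0.0713) at 7, 9 and 11 wk. The 3 wk effect had an unadjusted p of 0.0187 (adjusted 0.286), against a background of 1.15% called features and 5.2% above 0 with an unadjusted p under 0.05. The slope was -0.0004 per wk (SE 0.0114), and the test for unequal effects between ages gave an unadjusted p of 0.733. Leaving out any 1 array kept the mean effect between 0.12 and 0.17. With print blocks centred the mean effect was 0.098 (adjusted p 0.447 by limma). With the spot names as listed, where another clone stands for EBF2, it was 0.057. The 3 wk effect was 0.11 without 3 wk replicate 3 and 0.39 without 3 wk replicate 4, and 0.14 with print blocks centred.

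EBF3 was measured by 2 clones, printed in different blocks. The mean of both had a dye-corrected log2 ratio of -0.15, 0.22, -0.17 and 0.38 at 1 wk on replicates 1 to 4. At 3 wk it was 0.037, 0.15, -0.064 and 0.040. At 5 wk it was 0.12, -0.062, 0.17 and 0.009. The 3 wk and 5 wk arrays stayed within 0.2 of 0. The arrays parted by dye at 1 wk and narrowly at 3 wk, with replicates 2 and 4 above replicates 1 and 3. At 5 wk they parted the other way. At 7 wk the mean of both spots was 0.29, 0.20, 0.043 and 0.41. The 9 wk arrays gave 0.29, -0.28, -0.068 and 0.20, and the 11 wk arrays 0.48, 0.21, 0.035 and -0.34. All 4 arrays were above 0 at 7 wk alone, as were 2.45% of features, and the 9 wk and 11 wk arrays spread over both signs.

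The EBF3 line effect over the 6 ages was 0.09 (SE 0.0469, 95% interval -0.0029 to 0.19, unadjusted p 0.0565, adjusted p 0.472 by limma). It was above 0 on 17 of 24 arrays, a count reached by 5.36% of features. At 1, 3 and 5 wk it was 0.06 (SE 0.126), 0.03 (SE 0.101) and 0.07 (SE 0.130). The fitted effect at 7 wk was 0.23 (SE 0.125, unadjusted p 0.0749), followed by 0.06 (SE 0.120) at 9 wk and 0.11 (SE 0.0802) at 11 wk. The 7 wk effect was 0.11 without 7 wk replicate 4, and the mean over ages 0.06 without 9 wk replicate 1. The slope was 0.0075 per wk (SE 0.0128). Unequal effects between ages gave an unadjusted p of 0.878, and 0% of features were called in that test. The fitted mean effect was highest for EBF2 and lowest for PPARG, and the 95% intervals of all 3 overlapped.

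The 2 EBF3 clones had nearly the same mean over ages, 0.10 (SE 0.0616) for spot 1 and 0.09 (SE 0.0470) for spot 2. Array by array they moved together only weakly, with a Pearson r of 0.299 (permutation p 0.157, n = 24) and a Spearman rho of 0.296 (permutation p 0.158). Without 1 wk replicate 4 and 7 wk replicate 4, the arrays farthest from the median of spot 1, r was 0.414 (permutation p 0.0542). At 7 wk spot 1 stood at 0.047, 0.084, -0.037 and 0.82 on replicates 1 to 4, and spot 2 at 0.54, 0.30, 0.13 and 0.0037. Replicate 4 was thus the highest of the 4 on one clone and the lowest on the other, and the 7 wk mean of EBF3 joins values that did not repeat between clones. At 11 wk both clones ran alike, with 0.59, 0.12, -0.077 and -0.31 on spot 1 and 0.36, 0.29, 0.15 and -0.37 on spot 2. The clones also differed in the dye term, which was -0.29 for spot 2 (SE 0.0914, adjusted p 0.0186) and -0.02 for spot 1 (SE 0.120), where 33.8% of single spots were called.

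**Figure D2:**
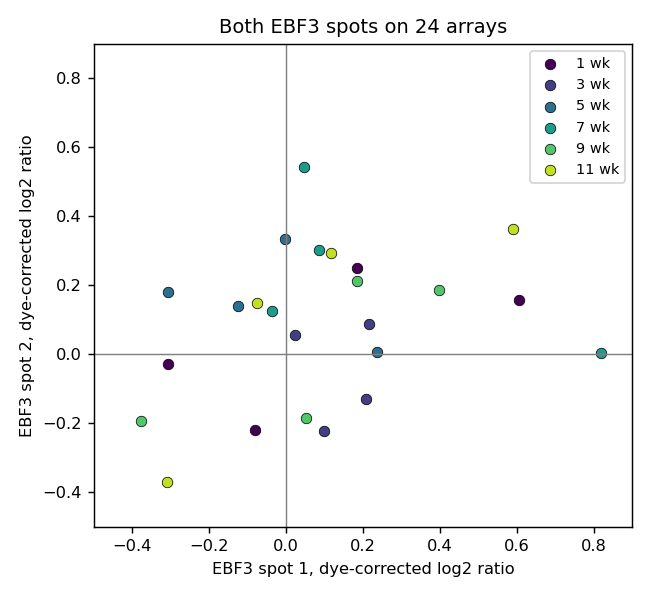
Dye-corrected log2 ratio of EBF3 spot 2 (y axis) against spot 1 (x axis), 1 point per array, coloured by age in wk. The points scatter loosely around a rising line (r 0.299), and the 7 wk array at 0.82 on spot 1 stands at 0.0037 on spot 2.

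The dye orientation mattered most for PPARG. As deposited, PPARG averaged -0.207 ± 0.636 on the 12 arrays with FL in the 647 channel and 0.284 ± 0.348 on the 12 with LL there (SD), with 4 and 10 arrays above 0. Its dye term was -0.58 (SE 0.190, adjusted p 0.0240), one of the 33.6% of features called for the dye term. EBF2 averaged 0.238 ± 0.178 with FL in the 647 channel, above 0 on 12 of 12 arrays, and 0.0888 ± 0.190 with LL there, above 0 on 8 of 12. The EBF2 dye term was 0.05 (SE 0.0809, adjusted p 0.656). EBF3 averaged 0.0152 ± 0.234 and 0.163 ± 0.195 on the same arrays, and its dye term was -0.16 (SE 0.0909, adjusted p 0.186). The dye term was thus called for PPARG and not for EBF2 or the mean of the EBF3 spots.

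Turning the ratios by the dyes changed the result for PPARG. This reading takes each deposited ratio as Alexa 647 over the other dye, which no source used here states, and with the opposite numerator every turned sign reverses. On that assumption PPARG was lower in FL: its mean over ages was -0.21 on the log2 scale (SE 0.0701, adjusted p 0.0212 by limma). It was below 0 on 18 of 24 arrays. Apart from scale and array weights, this mean and the dye term above are the same contrast. Both set arrays with FL in the 647 channel against those with LL there, so their calls are not separate results. Under that reading 37.8% of features were called in the mean over ages, and 16.1% lay below 0 on at least 18 arrays, so a call there is common. The turned PPARG ratios at 9 wk were -0.23, -1.25, -0.64 and -0.92 on replicates 1 to 4. At 11 wk they were -1.01, -0.40, -0.44 and -1.11. All 8 of these arrays lay below 0, whereas at 1 wk the turned ratios were 0.094, 0.36, -0.29 and 1.00, above 0 on 3 of 4. All 4 arrays lay below 0 for 14.6% of features at 9 wk and for 18.9% at 11 wk. The fitted effect was -0.64 at 9 wk (SE 0.185, adjusted p 0.0434) and -0.66 at 11 wk (SE 0.134, adjusted p 0.00217), where 5.99% and 13.2% of features were called. It was 0.26 at 1 wk (SE 0.178), -0.11 at 3 wk, -0.06 at 5 wk and -0.06 at 7 wk, none of them called, where 3.63%, 4.71%, 7.11% and 17.6% of features were called.

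The turned PPARG ratio fell by 0.09 per wk (SE 0.0196, adjusted p 0.0190, with 2.75% of features called), and the test for unequal effects between ages gave an adjusted p of 0.0570, with 6.09% of features called. With each array left out in turn, the turned PPARG mean, 11 wk effect and slope were called in 24 of 24 omissions. The 9 wk effect was called in 14 of 24, and without 9 wk replicate 2 it was -0.41 (adjusted p 0.381). EBF2 and EBF3 were not called under the turned reading at any age: the mean over ages was 0.06 for EBF2 (SE 0.0302, adjusted p 0.148) and -0.07 for EBF3 (SE 0.0404, adjusted p 0.208). The turned EBF3 effect at 11 wk was -0.18 (adjusted p 0.132) and was called in 2 of 24 omissions. EBF2 had the same sign in the mean over ages under both readings, and PPARG and EBF3 did not. The readings use different contrasts of the arrays, so a shared sign does not show that a line effect holds under both. The turned EBF2 ratio was above 0 on 16 of 24 arrays, fewer than as deposited. Its turned effect was 0.24 at 1 wk, 0.19 at 5 wk and 0.10 at 9 wk, and below 0 at 3, 7 and 11 wk. Limma gave an unadjusted p of 0.0059 at 1 wk (adjusted 0.0874) and 0.0251 at 5 wk (adjusted 0.176). For EBF2 the test for unequal turned effects between ages gave an unadjusted p of 0.0140 (adjusted 0.101).

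**Figure D3:**
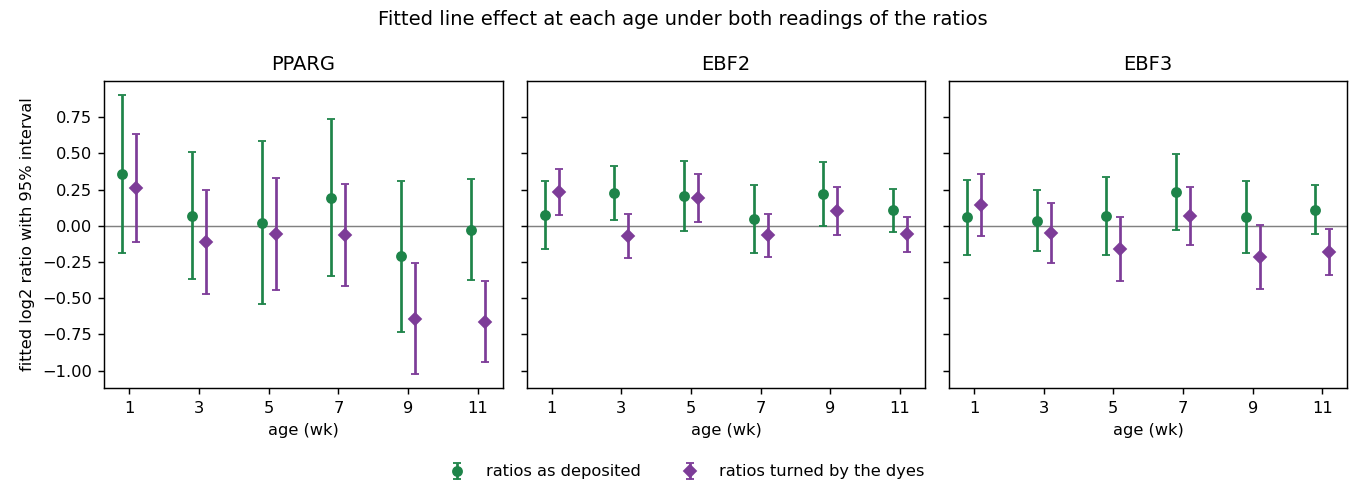
Fitted log2 line effect with its 95% interval (y axis) at each age in wk (x axis) for PPARG, EBF2 and EBF3, with the ratios as deposited (circles) and turned by the dyes (diamonds). For PPARG the turned effects at 9 and 11 wk (-0.64 and -0.66) have intervals below 0, and those as deposited (-0.21 and -0.03) cover 0.

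PPARG and EBF3 were correlated across arrays by Pearson's r, though not by rank, and EBF2 with neither. Across the 24 dye-corrected ratios PPARG and EBF3 correlated at a Pearson r of 0.572 (permutation p 0.0032, adjusted over 3 pairs 0.0096). The Spearman rho was 0.390 (permutation p 0.0606, adjusted 0.182). Without 1 wk replicate 4 and 9 wk replicate 2, the arrays farthest from the PPARG median, r was 0.408 (permutation p 0.0596), so without those arrays it was still above 0 and no longer passed 0.05. It was 0.649 with each age centred, 0.572 with the ratios turned by the dyes and 0.494 with print blocks centred (the permutation p adjusted over 3 pairs was at most 0.0414). Turning reverses both genes on the same arrays, so that setting could hardly change r and does not bear on the choice between readings. Within the 12 arrays of each dye orientation r was 0.681 with FL in the 647 channel and 0.368 with LL there. Both genes parted by dye in the same direction at 1 and 3 wk, and an r without such splits was not computed. PPARG and EBF2 correlated at 0.0316 (rho 0.0096, permutation p 0.883 and 0.966), and at -0.0873 without their 2 farthest arrays. EBF2 and EBF3 correlated at -0.0592 (rho -0.0591, permutation p 0.783 and 0.785), and at -0.119 without their 2 farthest arrays.

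The listed adipocyte target genes of PPARG, which encode proteins of lipid uptake, storage and breakdown, followed PPARG across arrays. The median dye-corrected ratio of the 25 measured targets correlated with that of PPARG at a Pearson r of 0.674 (permutation p 0.00039, adjusted over 15 relations 0.0058) and a Spearman rho of 0.573 (permutation p 0.0041, adjusted 0.0311). Without 1 wk replicate 4 and 9 wk replicate 2 it was 0.466 (permutation p 0.0294). The relation was present within each dye orientation, at 0.781 with FL in the 647 channel and 0.50 with LL there. It was 0.671 with each age centred, 0.740 with the ratios turned, 0.691 with print blocks centred and 0.261 with the spot names as listed. The turned value is no separate check, since turning reverses PPARG and its targets on the same arrays. Like PPARG, the target medians were higher on replicates 2 and 4 than on replicates 1 and 3 at 1 and 7 wk. On replicates 2 and 4 they were lower at 9 wk (-0.221 and -0.129 against 0.097 and 0.105). At 5 wk only the targets parted by dye, and at 3 and 11 wk only PPARG. Neither age centring nor a single dye orientation removes a dye split that changes with age. An r without that split was not computed. The 25 targets were highest on 1 wk replicate 4 (median 0.23), where PPARG stood at 1.29, and lowest on 9 wk replicate 2 (median -0.22), where PPARG stood at -0.96. The first of these arrays was also the one with 160 spots lacking a value, and its hepatocyte marker median was the lowest of all, at -0.53. The part of missing spots in the relation was not tested.

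**Figure D4:**
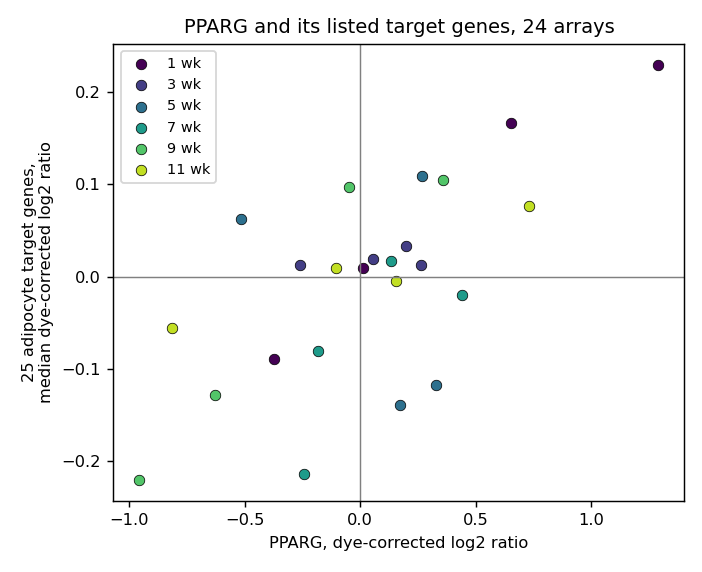
Median dye-corrected log2 ratio of the 25 measured PPARG target genes (y axis) against that of PPARG (x axis), 1 point per array, coloured by age in wk. The points rise together (r 0.674), with 1 wk replicate 4 at the upper right (1.29 and 0.23) and 9 wk replicate 2 at the lower left (-0.96 and -0.22).

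Single targets showed the same direction. Of the 25 targets, 22 correlated with PPARG above 0, with a median r of 0.288, where 3180 of all 6401 named genes did so with a median of -0.0026. G0S2, an inhibitor of the lipase that opens triglyceride breakdown, stood at 0.776, and PLIN1, which coats the lipid droplet, at 0.671. CEBPA, a transcription factor that sustains PPARG expression, stood at 0.658, FABP4, the adipocyte fatty acid binding protein, at 0.584, and CD36, a fatty acid translocase, at 0.496. PNPLA2, that lipase itself, stood at 0.569, and DGAT2, which makes triglyceride, at 0.558. The lowest were MGLL, which splits monoglycerides, at -0.445, PCK1, of glyceride glycerol synthesis, at -0.0895, and SLC27A1, a fatty acid transporter, at -0.0780. ADIPOQ, the adipokine adiponectin, stood at 0.0768. Some listed inhibitors of adipogenesis stood in the same range, TCF7L2 at 0.668, TWIST1 at 0.572 and CTNNB1 at 0.510. The stromal gene VIM stood at 0.616. In those lists 7 of 15 inhibitors and 8 of 17 stromal genes correlated above 0. The dye term was -0.83 for G0S2, -1.02 for FABP4 and -0.96 for PNPLA2, but -0.12 for PLIN1 and 0.02 for CD36. The part of a shared dye response was not tested. These coefficients are taken over the same 24 arrays and are given as a description.

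The median of 11 measured promoters of adipogenesis also followed PPARG, with an r of 0.603 (permutation p 0.0016, adjusted 0.0117). The rho was 0.617 (adjusted 0.0242), and r was 0.557 without the same 2 arrays. Single promoters followed less closely, with 10 of 11 above 0 and a median r of 0.185. The highest were CEBPA (0.658), which is in both lists, and CEBPB (0.481). The median of the 11 genes gave 0.686 with the ratios turned, again no separate check, and 0.386 with the names as listed. The other relations of PPARG were 0.274 with its partners and coregulators, 0.255 with inhibitors of adipogenesis and 0.250 with stromal and preadipocyte genes, each with an adjusted p of 0.464. EBF3 correlated with the PPARG targets at 0.489 (permutation p 0.0148, adjusted 0.0740). Of the 25 targets 21 lay above 0 with it, against 3139 of all 6401 named genes. For EBF2 the targets stood at -0.144 (adjusted p 0.627), with 14 of 25 above 0, near the share of all named genes (3112 of 6401). Which of these coefficients differ from each other was not tested.

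The genes most like PPARG across the 24 arrays, by Pearson r among 6401 named genes, were XPOT (0.841), a tRNA exporter, PPP2CB (0.819), a phosphatase subunit, and VLDLR (0.810), a lipoprotein receptor, followed by YWHAQ (0.797), a 14-3-3 protein, and G0S2 (0.776). Those most like EBF2 were EZR (0.750), a membrane-cytoskeleton linker, RPA2 (0.747), of single-stranded DNA binding, BPIFB2 (0.735), PINK1 (0.708), a mitochondrial kinase, and SMARCB1 (0.698), a chromatin remodelling subunit. EBF3 was followed most closely by PRSS23 (0.763), a serine protease, TMEM106B (0.745), a lysosomal membrane protein, EMCN (0.744), an endothelial sialomucin, DPYSL2 (0.722), of axon growth, and TCF7L2 (0.698), a Wnt pathway transcription factor. SMARCB1 shares a print block with EBF2, and DPYSL2 and TCF7L2 share one with EBF3. For PPARG the top 1% of named genes began at 0.634, for EBF2 at 0.555 and for EBF3 at 0.533.

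In the line effect over the 6 ages the regulators and targets around the 3 genes were mixed, and 0 of them were called in any of the 5 lists. Of all features, 52.6% were above 0 with a median of 0.0031. Of 26 listed partners and coregulators of PPARG, 13 were measured and 7 lay above 0 (median 0.0059), with 0 higher and 1 lower at an unadjusted p under 0.05, where 6.16% of features were higher and 4.89% lower. NCOR1, a corepressor, stood at 0.09 (SE 0.0567), and NCOA4, a coactivator also known for ferritin turnover, at 0.06 (SE 0.0400). NCOA6, a coactivator, stood at -0.10 (SE 0.0471) and HDAC3, the deacetylase of corepressor complexes, at -0.03 (SE 0.0288). No partner stood further than 0.10 from 0.

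Of 32 listed promoters of adipogenesis 11 were measured, and 8 lay above 0 (median 0.0045), with 2 higher and 0 lower at an unadjusted p under 0.05. NR1H3, the liver X receptor that drives lipogenic genes, stood at 0.11 (SE 0.0477), and ZNF423, a zinc finger factor of preadipocyte commitment, at 0.08 (SE 0.0328). INSR, the insulin receptor, stood at -0.04 (SE 0.0267) and CEBPA at -0.05 (SE 0.0429). Among 34 listed inhibitors 15 were measured and 9 lay above 0 (median 0.02), with 0 in either direction at an unadjusted p under 0.05. CTNNB1, the beta-catenin of Wnt signalling, stood at 0.14 (SE 0.0831) and TGFB3, a growth factor that holds back differentiation, at 0.09 (SE 0.0530). TWIST1, a helix-loop-helix repressor, stood at -0.09 (SE 0.0581) and GATA2, a preadipocyte repressor of PPARG, at -0.04 (SE 0.0319).

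Of 37 listed PPARG targets 25 were measured, and 14 lay above 0 (median 0.02), with 3 higher and 2 lower at an unadjusted p under 0.05. SLC27A4, a fatty acid transporter, stood at 0.14 (SE 0.0419, unadjusted p 0.0024) and UCP3, a mitochondrial carrier, at 0.07 (SE 0.0265). ACADL, which begins the oxidation of long-chain fatty acids, stood at -0.16 (SE 0.0394, adjusted p 0.0958) and GPD1, which supplies glycerol phosphate, at -0.12 (SE 0.0479). At 1 wk 19 of 25 targets were above 0 (median 0.07), against 49.5% of all features. This was the highest count, with 17, 9, 11, 14 and 12 of 25 above 0 at 3, 5, 7, 9 and 11 wk. By array the 1 wk target medians were -0.09, 0.167, 0.009 and 0.23 on replicates 1 to 4. The higher ones were thus the arrays with FL in the 647 channel, and replicate 2 also had the highest hepatocyte marker median (1.32). At 3 to 11 wk 48.9% to 55.4% of all features were above 0. At 3 wk 1 target was called: ACADL stood at -0.47 (SE 0.0849, adjusted p 0.0188, above 0 on 0 of 4 arrays), in the comparison where 1.15% of features were called.

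Of 20 listed stromal and preadipocyte genes 17 were measured, and 12 lay above 0 (median 0.08), with 5 higher and 0 lower at an unadjusted p under 0.05. POSTN, the matrix protein periostin, stood at 0.51 (SE 0.0995, adjusted p 0.0612) and FN1, fibronectin, at 0.14 (SE 0.0315, adjusted p 0.0865). TCF21, a factor of visceral preadipocytes, stood at -0.05 (SE 0.0332) and THY1, a stromal surface protein, at -0.08 (SE 0.0560). At 11 wk POSTN stood at 0.94 (SE 0.170, adjusted p 0.0444, above 0 on 4 of 4 arrays), where 0.0466% of features were called. With the ratios turned by the dyes, 2 of 17 stromal genes and 9 of 25 targets were above 0, against 48.7% of all features. Of those lists 41.2% and 48% of genes were called under that reading (7 and 10 lower, 0 and 2 higher), and 27.3% to 46.7% of the other 3 lists, where 37.8% of all features were called.

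**Figure D5:**
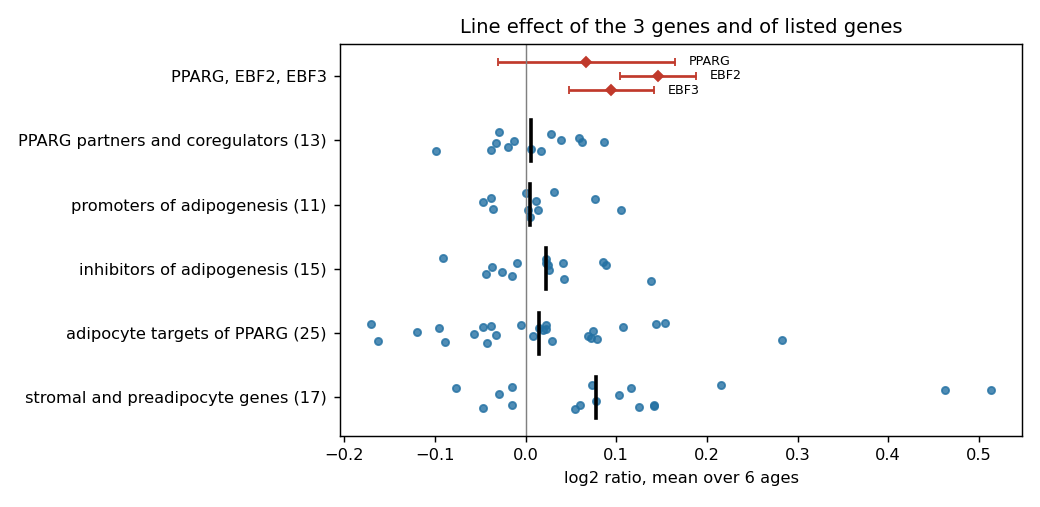
Fitted log2 line effect over the 6 ages (x axis) of PPARG, EBF2 and EBF3 (diamonds with bars of 1 SE) and of each measured gene in 5 lists (points; the vertical bar is the list's median). The list medians lie between 0.0045 and 0.08, and EBF2 stands at 0.15.

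Of the markers of other cell types in the fat samples, those of nerve and of skeletal muscle had the highest coefficients, both with EBF2. Across the 24 arrays the hepatocyte list (15 of 16 genes measured, array medians from -0.53 to 1.32) correlated at 0.0274 with PPARG, -0.167 with EBF2 and 0.0186 with EBF3. The skeletal muscle list (13 of 16 measured, medians from -0.40 to 0.22) stood at -0.271, 0.430 and -0.190 with the same genes, and the nerve and glia list (7 of 10 measured, medians from -0.19 to 0.38) at -0.239, 0.451 and -0.0861. These 21 coefficients, 7 marker lists by 3 genes, are a description, and the part of these cell types in the EBF2 ratios was not tested. The largest coefficient of the other 4 lists was 0.354, between the smooth muscle list and EBF3. In earlier results 1 wk replicate 2 and 5 wk replicate 1 had high liver genes. Without them the 1 wk effects were -0.05 for PPARG, -0.09 for EBF2 and -0.08 for EBF3. Each was of the opposite sign to the effect with all arrays. The signs also changed without 1 wk replicate 4 alone, the array with the lowest hepatocyte median (-0.53). The effects were then -0.05, -0.08 and -0.11 for the same genes. At 1 wk replicates 2 and 4 share a dye orientation, and all 3 genes were higher on them than on the other arrays. The part of liver RNA in these sign changes was not tested.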

How the data were processed

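The authors deposited 1 log2 ratio per spot and array, taken here as base 2 from limma's usual output. Limma 3.4.5 and R 2.11.1 are listed in the submitters' processing notes. How the background was corrected, how arrays were normalized and which line was divided by which is not given in the sources used here. No signal over background or depth comes with a ratio, so spots near the background could not be recognized. The number of arrays limits the precision as well. Array medians lay between -0.0561 and 0.0189, the SD of an array between 0.209 and 0.435, and array weights between 0.348 and 3.61.

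Spots were named from the platform annotation, with 10601 of 19200 spots carrying 1 symbol, 8599 none and 0 several; 98.6% of the named ones were found in the RefSeq gene table. Row and column were exchanged within blocks, a choice made after seeing the data. The 123 spots of 2 control clones were left out and spots of one symbol averaged, which gave 15027 features. The model, run with limma 3.58.1 and statmod 1.5.0 under R 4.3.3, had 6 age effects, 1 dye term, array weights and eBayes moderation, with Benjamini-Hochberg adjustment over all features at 0.05. The fit was tested on simulated data. Correlations used 100000 permutations, two-sided, over all 24 arrays without regard to age or dye orientation. Their p thus takes the arrays as interchangeable, which a dye split within ages does not grant. Named genes were the 3 members, for each list the 2 genes with the smallest p above 0 and the 2 below 0 in the mean over ages, and the 5 genes most correlated with each member. Other single targets of PPARG, the genes of other lists set beside them, and genes called at one age, were named after their values were seen. The members and lists were chosen with earlier results of these data known. Genome coordinates and sequences were not used here.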

Additional observations from a re-analysis of the deposited data

Results flagged for a closer look

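EBF2 at 7 wk had 1 array far from the other 3: replicate 3 stood at 0.252, and the gap to the next array was 0.936 of the range of the 4. EBF3 spot 1 at 7 wk had 1 such array as well, replicate 4 at 0.819, with a gap of 0.859 of the range, and the other EBF3 clone was not high there. Such a gap was looked for in 30 groups of 4 arrays with Dixon's test, of which chance alone would mark about 1 in 20.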

How the results depend on the processing

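Apart from the turned reading, no alternative led to a call for PPARG, EBF2 or EBF3. Values are log2 ratios unless given as counts. With the ratios turned by the dyes, PPARG was -0.21 over the ages, -0.113, -0.0588, -0.0624, -0.64 and -0.66 at 3, 5, 7, 9 and 11 wk and -0.0887 per wk. EBF2 was then -0.0705, -0.0664 and -0.0573 at 3, 7 and 11 wk, and EBF3 -0.0657 over the ages, -0.0512, -0.16, -0.21 and -0.18 at 3, 5, 9 and 11 wk and -0.0271 per wk, with 5687 features called over the ages and 915 for unequal ages. With the spot names as listed, other clones stood for the genes: PPARG was -0.0193, -0.0613, 0.0451 and 0.0286 at 3, 5, 9 and 11 wk and 0.0050 per wk, EBF2 -0.14 and -0.0750 at 5 and 11 wk, and EBF3 -0.0620 over the ages and -0.12, -0.0837, -0.0548, -0.0096, -0.0789 and -0.0297 at the 6 ages, with 12 features called. Without the dye term PPARG at 9 wk was 0.0118.

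Without the 2 arrays with high liver genes, the 1 wk effects were -0.0461, -0.0885 and -0.0847 for PPARG, EBF2 and EBF3, and 11 features were called. The EBF2 slope, near 0 in all, changed sign without array weights (0.00030), with blocks centred (0.0018), with an age-specific dye term chosen after seeing the data (0.00030), without those 2 arrays (0.0094) and without 3, 5, 7 or 11 wk (0.0037, 0.00080, 0.0014 and 0.0056). The 2 features called over the ages became 0 without weights, without a dye term, with arrays or blocks centred, with an age-specific dye term and without 3, 7, 9 or 11 wk, 45 without 1 wk and 77 without 5 wk. The correlation of EBF2 and EBF3 was 0.0490 with ages centred. The cause of these changes was not tested.

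Replicate numbers named different birds and did not pair the arrays (mean r -0.0594 between ages for the same number, -0.0871 for the other number of that dye). With the replicate block in place of the dye term the EBF2 slope was 0.00015 and 0 features were called over the ages, and no other sign changed.

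Leaving out each array in turn, the PPARG mean ran from -0.00044 (without 7 wk replicate 2) to 0.14, and its 6 ages from -0.0489 to 0.77, -0.0083 to 0.20, -0.27 to 0.22, -0.22 to 0.40, -0.58 to 0.0345 and -0.21 to 0.19. EBF2 ran from -0.0842 to 0.23 at 1 wk, -0.0057 to 0.20 at 7 wk and -0.0052 to 0.23 at 11 wk, with a slope from -0.0116 to 0.0110. EBF3 ran from -0.11 to 0.23 at 1 wk and -0.13 to 0.20 at 9 wk, with a slope from -0.0044 to 0.0193. The count of features called over the ages ran from 0 to 203 (without 5 wk replicate 2) and that for unequal ages from 0 to 2.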
